A study of Ictidomys tridecemlineatus with 31 samples.

Results

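Ribonuclease P (RNase P) is the ribonucleoprotein that trims the 5′ leader from precursor tRNAs. In the nucleus of mammals, a catalytic noncoding RNA transcribed by RNA polymerase III sits in a shell of proteins of the Pop and Rpp families, and most of these proteins are shared with RNase MRP, which acts in ribosomal RNA processing. The mature RNase P RNA carries no poly(A) tail, whereas nuclear RNAs that are marked for trimming or decay by the exosome, a complex with 3′ exonuclease activity, can carry a short one. The genes described here are the RNase P RNA (RNaseP_nuc, ENSSTOG00000018579) and the protein subunits Pop1 (gene622), Pop4 (gene13573), Pop5 (gene19201), Pop7 (gene11500), Rpp14 (gene1359), Rpp30 (gene16268), Rpp38 (gene13743), and Rpp40 (gene10667). They were taken by name, and 9 of 10 names matched a row among the 12863 rows of the table. No row carried the name Rpp25. The RNase P RNA was put at the head of this list because earlier results of these data showed it changing across states, so all of its differences between states are a description with no test. The proteins were added by name as members of the same complex.

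Kidney RNA came from 31 animals of the 13-lined ground squirrel (13-LGS, *Ictidomys tridecemlineatus*) from a captive colony or a supplier, 17 females and 14 males, each sampled once. No genotype or drug was varied, and ages were not given in the sources used here. All animals carried temperature devices, and body temperature placed each in 1 of 6 states. Summer active (SA, 5 animals) and spring dark (SpD, 5 animals) kidneys came from warm animals of the active season. The other states came from the hibernation season. Arousing animals (EAr, 5 animals) had just begun to rewarm from torpor and were still cold, later arousing animals (LAr, 6 animals) were still rewarming, interbout aroused animals (IBA, 5 animals) had rewarmed, and entrance animals (Ent, 5 animals) were cooling into the next torpor bout. Experiment 1 (Illumina TruSeq libraries) held 9 animals, 3 each of IBA, Ent, and SpD, and experiment 2 (Nugen libraries) held the other 22, so that SA, EAr, and LAr came from experiment 2 alone. K113 (LAr) and K137 (SA) were left out of the fits, as in the study, and are given apart. A further SA animal that the study sequenced and left out, K136, has no values here. RNA came from a fragment of each kidney, and within such RNA fewer cells of a type and less RNA per cell cannot be told apart.

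Values are the authors' batch-corrected, regularized log (rlog) values on the log2 scale, on which 1 unit is a doubling. They ran from 4.11 to 19.79 over the table, and the median of each animal lay between 9.74 and 9.88. The reads behind a value are unknown, so how precise a value is can be judged only by how far animals of a state differ. Both kits selected polyadenylated RNA, so a value of the RNase P RNA stands for molecules that oligo(dT) beads retained, and the share that these make of all RNase P RNA was not measured. All 24 kidney tubule, podocyte, endothelial, and macrophage markers that were looked for were in the table. Of 6 adrenal genes and 3 erythroid genes, none had a row under the listed symbols.

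Levels of the RNase P RNA were high in the 2 arousing states and low in the other 4. In EAr it was 7.84 (K154), 8.14 (K156), 6.996 (K157), 7.64 (K158), and 7.96 (K165). In LAr it was 7.18 (K109), 8.17 (K111), 7.59 (K112), 7.38 (K115), and 7.86 (K116). These animals overlapped each other and lay above every animal of every other state.

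In SA the RNase P RNA was 4.89 (K138), 5.04 (K139), 4.95 (K140), and 5.41 (K141). In the states with 2 experiments it separated by experiment. IBA animals were at 6.46 (K1), 6.10 (K4), and 6.18 (K7) in experiment 1 and at 4.63 (K104) and 4.48 (K171) in experiment 2. Ent animals were at 6.54 (K2), 6.39 (K5), and 6.40 (K8) in experiment 1 and at 5.15 (K155) and 4.64 (K167) in experiment 2. SpD animals were at 6.07 (K3), 5.99 (K6), and 6.06 (K9) in experiment 1 and at 4.57 (K130) and 4.87 (K84) in experiment 2. Within an experiment, the animals of IBA, Ent, and SpD lay close together, whereas the same state in the other experiment was more than 1 unit away.

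**Figure D1:**
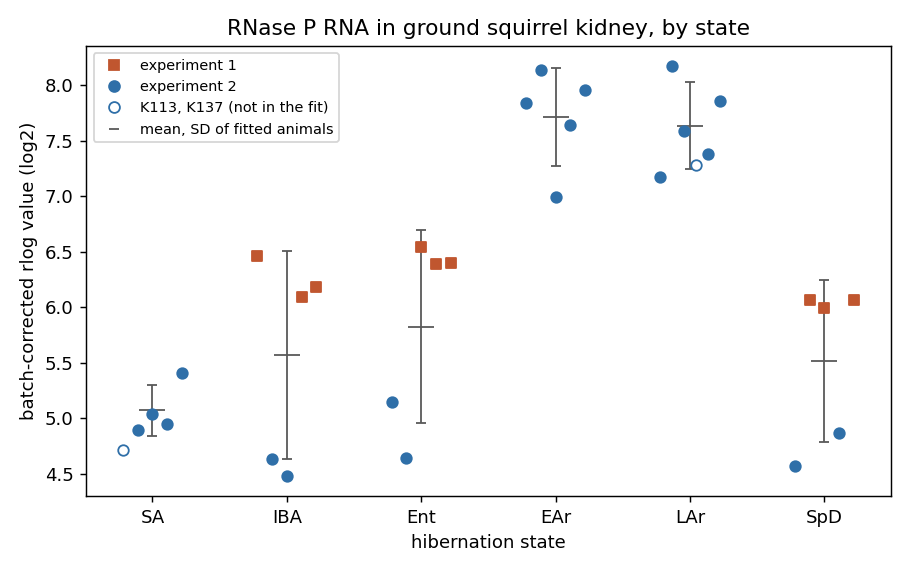
The y axis gives the batch-corrected rlog value (log2) of the RNase P RNA and the x axis the hibernation state, with 1 point per animal, squares for experiment 1, circles for experiment 2, open circles for K113 and K137, and bars for the mean ± SD of the fitted animals. The 11 EAr and LAr animals sit between 6.996 and 8.17, above the squares at 5.99 to 6.54 and the other circles at 4.48 to 5.41.

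For the RNase P RNA the experiments differed in the table as deposited, after the authors' correction. Over all 31 animals the mean of the RNase P RNA was 6.24 in experiment 1 and 6.24 in experiment 2, although all 11 EAr and LAr animals were in experiment 2. The same held in all 12863 rows, whose means over the 31 animals were equal in both experiments within 1e-09, so the correction set the experiments to 1 mean without regard to the states each held. Values of the RNase P RNA in experiment 1 are therefore not on the same footing as those in experiment 2, and its state means over IBA, Ent, and SpD animals mix both. In the limma model with terms for state, sex, and experiment, experiment 2 lay below experiment 1 with a coefficient of -1.54. Within experiment 2, the 11 EAr and LAr animals lay 1.59 above the highest of the other 11 animals. The lowest of them lay 0.458 above the highest animal of experiment 1.

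State means over the fitted animals were 7.72 ± 0.44 in EAr (SD, n = 5), 7.64 ± 0.39 in LAr (SD, n = 5), 5.82 ± 0.87 in Ent (SD, n = 5), 5.57 ± 0.94 in IBA (SD, n = 5), 5.51 ± 0.73 in SpD (SD, n = 5), and 5.07 ± 0.23 in SA (SD, n = 4). These SDs hold the offset between experiments in Ent, IBA, and SpD, where the SD within experiment 1 was 0.083, 0.19, and 0.042 (n = 3 each). With experiment in the model, the fitted levels were 8.50 in EAr, 8.39 in LAr, 5.84 in SA, 5.65 in Ent, 5.40 in IBA, and 5.34 in SpD. Fitted levels, here and below, are set midway between the experiments and between the sexes. For the RNase P RNA, those of EAr, LAr, and SA therefore lie above every animal of these states, which came from experiment 2 alone. SA was lowest by the means of the table, which mix both experiments in Ent, IBA, and SpD. Within experiment 2 it had the highest mean of the 4 low states, as by the fitted levels. Means there were 5.07 in SA (n = 4), 4.89 in Ent, 4.72 in SpD, and 4.56 in IBA (n = 2 each). The SA and Ent animals overlapped.

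The fitted difference between EAr and IBA was 3.10 (SE 0.20), 8.60-fold. Between EAr and Ent, the states on either side of a torpor bout, it was 2.85 (SE 0.20), 7.23-fold. IBA was 2.99 below LAr (difference -2.99, SE 0.20, 7.94-fold). Pairs within the high states or within the low states differed less. LAr minus EAr was -0.11 (SE 0.18), Ent minus IBA was 0.25 (SE 0.17), and SpD minus IBA was -0.058 (SE 0.17). SA minus SpD was 0.50 (SE 0.21). The mean of the 4 hibernation states exceeded that of SA and SpD by 1.39 (SE 0.11), a difference that averages over high EAr and LAr levels and IBA and Ent levels near those of the active season.

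Differences within experiment 2 compare libraries of 1 kit. There EAr exceeded IBA by 3.16 (8.94-fold), Ent by 2.82 (7.08-fold), SpD by 2.99 (7.97-fold), and SA by 2.64 (6.25-fold), and LAr exceeded IBA by 3.08 (8.46-fold). IBA, Ent, and SpD had only 2 animals each in it. Within experiment 1, Ent minus IBA was 0.19 and SpD minus IBA was -0.21. Over all 12863 rows, the groups did not overlap in 13.4% for EAr against IBA and 1.20% for EAr against Ent, and nothing is read from this for the RNA because these contrasts chose it.

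Of the animals outside the fit, K113 had a level of 7.28, within the range of the other LAr animals (7.18 to 8.17). K137 had 4.71, below the other SA animals (4.89 to 5.41). Over all animals, RNase P RNA reached 7, the level of the authors' filter, in 4 of 5 EAr animals and 6 of 6 LAr animals, and in 0 animals of any other state. The authors filtered before the batch correction, and 12689 of the 12863 rows meet the filter on the values used here. By these values, the RNase P RNA is in the table through the states in which it was high. Males were 0.17 below females in the fit (coefficient -0.17). Its SD around the fit was 0.285, against a median of 0.155 over all rows.

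Proximal tubule markers (5 of 5 in the table, among them the endocytosis receptors Lrp2 and Cubn) had mean levels per animal of 15.24 to 15.48 in EAr and 14.43 to 15.12 in IBA. In LAr, where the RNase P RNA was about as high, they were at 15.00 to 15.33, and in SA, where it was low, at 15.38 to 15.68. Genes listed for the inner medulla (4 of 4 in the table) had mean levels per animal of 10.91 to 12.26 in EAr and 10.87 to 11.14 in LAr. These means were 11.28 to 12.64 in SA, 11.21 to 13.42 in IBA, 11.004 to 12.30 in Ent, and 11.65 to 13.69 in SpD. Among these genes Slc5a3, a myo-inositol transporter, had its lowest fitted levels in the 2 arousing states, 10.85 in EAr and 10.62 in LAr. It was at 11.56 to 12.20 in the other 4 (EAr minus IBA -1.35, q = 0.031). Aqp1 was also lowest in both, with EAr minus IBA of -0.15 (q = 0.62). Its fitted levels, 14.26 to 15.20, were near those of the proximal tubule markers, so the list mean does not stand for inner medulla alone. Slc14a2 was lowest in LAr (5.99), but its EAr level (8.52) lay above that of SA (8.32). Its fitted levels spanned 4.44 between states, the widest range of the list. Akr1b1 was highest in EAr (12.72), against 12.40 to 12.66 in the other states. The endothelial cadherin gene Cdh5 was lowest in the 2 arousing states, at 9.74 and 9.66 against 9.95 to 10.53 (EAr minus IBA -0.56, q = 0.060). Over all 24 markers, the limma F test across states called 0 at q under 0.001 and 9 at 0.05, and 12 had an unadjusted p under 0.05. The shares of all rows at these thresholds were 9.34%, 46.1%, and 56.0%. The part of cell composition in the RNase P RNA values was not tested.

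The fitted levels of the protein subunit mRNAs differed between the highest and the lowest state by a median of 0.34, against 0.35 over all rows. Those of the RNase P RNA, which was chosen for its change, differed by 3.16. By the limma F test across the 6 states, 1 of 8 subunits, Pop7, was differentially expressed (DE) at a Benjamini-Hochberg adjusted q under 0.001. The background was 9.34% of all rows, and 1 of 8 is 12.5%. At q under 0.05 the count was 3 of 8 (37.5%, against 46.1% of all rows), namely Pop7, Rpp30, and Rpp38. The unadjusted p was under 0.05 for 7 of 8, all but Pop5, and for 56.0% of all rows.

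**Figure D2:**
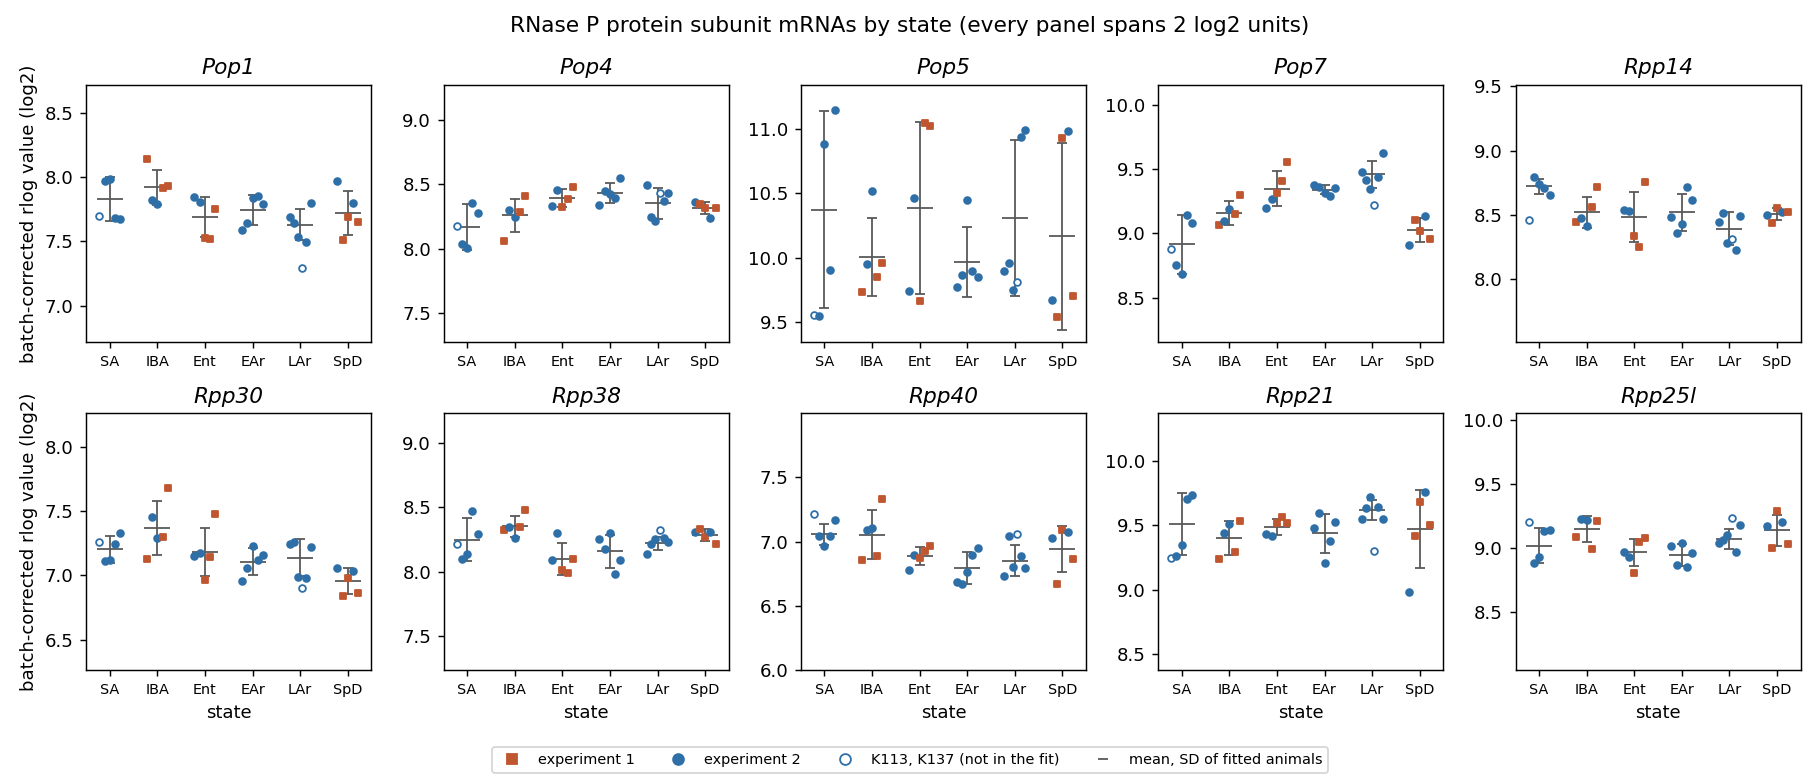
Each panel gives the batch-corrected rlog value (log2, y axis, spanning 2 units) of 1 subunit mRNA by state (x axis), with 1 point per animal, squares for experiment 1, circles for experiment 2, open circles for K113 and K137, and bars for the mean ± SD of the fitted animals. Pop7 lies at 8.68 to 9.14 in SA and at 9.35 to 9.63 in the fitted LAr animals (K113 at 9.22), and Pop5 spreads from 9.54 to 11.15 within states.

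Pop7 encodes a small subunit that binds the RNase P and MRP RNAs as a pair with Rpp25. In SA it was at 8.76 (K138), 8.68 (K139), 9.14 (K140), and 9.08 (K141), and in SpD at 9.10 (K3), 9.02 (K6), 8.96 (K9), 8.91 (K130), and 9.14 (K84). In IBA it was at 9.06 (K1), 9.15 (K4), 9.30 (K7), 9.10 (K104), and 9.19 (K171). The IBA animals overlapped the highest animals of SA and SpD.

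Pop7 in Ent was at 9.31 (K2), 9.41 (K5), 9.56 (K8), 9.20 (K155), and 9.27 (K167). In EAr it was at 9.37 (K154), 9.36 (K156), 9.31 (K157), 9.29 (K158), and 9.36 (K165), and in LAr at 9.48 (K109), 9.42 (K111), 9.35 (K112), 9.44 (K115), and 9.63 (K116). Every Ent, EAr, and LAr animal of the fit lay above every SA and SpD animal. This split leaves out IBA, which overlapped SA and SpD. The share of all rows that show it was not counted, so nothing is read from it. K113, outside the fit, had 9.22, below the other LAr animals.

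Pop7 rose in hibernation. The mean of the 4 hibernation states exceeded that of SA and SpD by 0.36 (SE 0.051), 1.28-fold (limma, q = 1.7e-05), and this was the only call among the subunits at q under 0.001, in a contrast that called 9.73% of all rows. Across the 6 states its q was 1.1e-04. In experiment 2 alone the difference was 0.33 (q = 0.0019), which does not pass 0.001. In experiment 1, whose active season is SpD alone, means were 9.03 ± 0.073 in SpD, 9.17 ± 0.12 in IBA, and 9.42 ± 0.12 in Ent (SD, n = 3 each).

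Between Ent and EAr, where the RNase P RNA differed 7.23-fold, Pop7 had means of 9.35 ± 0.14 and 9.34 ± 0.035 (SD, n = 5 each). For Pop7, IBA was 0.34 below LAr (difference -0.34, SE 0.090, q = 0.011), a step that does not pass 0.001, and no IBA animal reached the lowest fitted LAr animal. Within experiment 2 the means were 9.14 (IBA, n = 2) and 9.46 (LAr, n = 5).

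Pop1 is the largest protein of the complex, and Pop4 (Rpp29) and Rpp21 are smaller ones. Pop1 was highest in IBA at 7.92 ± 0.14 and lowest in LAr at 7.63 ± 0.12 (SD, n = 5 each), with 7.79 to 8.14 in IBA and 7.49 to 7.80 in LAr, so that the lowest IBA animal lay just within the LAr range. IBA minus LAr was 0.35 (SE 0.10, q = 0.020). Within experiment 2, the IBA mean was 7.81 (n = 2), against 7.99 (n = 3) in experiment 1. In experiment 2 IBA was thus not highest. SpD was at 7.89 (n = 2), SA at 7.83 (n = 4), and Ent at 7.82 (n = 2), while EAr was at 7.74 and LAr at 7.63 (n = 5 each). Pop4 ranged from 8.17 ± 0.18 in SA (SD, n = 4) to 8.43 ± 0.077 in EAr (SD, n = 5) and had q = 0.058 across states. Rpp21, which was not among the 10 names, ranged from 9.40 ± 0.13 in IBA to 9.62 ± 0.074 in LAr (SD, n = 5 each), with q = 0.49.

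Rpp30, Rpp38, and Rpp40 were each highest in IBA by the fitted levels. Rpp30, which forms a subcomplex with Pop5, Rpp14, and Rpp40, had 7.37 ± 0.21 in IBA and 6.95 ± 0.10 in SpD (SD, n = 5 each). Its ranges were 7.13 to 7.68 and 6.84 to 7.06. SpD minus IBA was -0.42 (SE 0.10, q = 0.0083), and the SpD and IBA means were 6.89 and 7.37 within experiment 1 and 7.05 and 7.37 within experiment 2.

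Rpp38, a protein that binds kink-turns in RNA, was at 8.35 ± 0.080 in IBA and 8.10 ± 0.12 in Ent (SD, n = 5 each), and Ent minus IBA was -0.25 (SE 0.073, q = 0.024). The IBA range of 8.26 to 8.48 overlapped the Ent range of 7.99 to 8.30. In experiment 1 the IBA and Ent means were 8.38 and 8.03, and in experiment 2 they were 8.30 and 8.20. On these batch-corrected values, Rpp40 had at least 4 animals at 7 or more, the authors' filter, in SA only. It was at 7.05 ± 0.19 in IBA and 6.79 ± 0.13 in EAr (SD, n = 5 each). EAr minus IBA was -0.31 (SE 0.10, q = 0.044), opposite in sign to the RNase P RNA, and within experiment 2 the IBA mean was 7.10 (n = 2).

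Rpp14 was at 8.72 ± 0.058 in SA (SD, n = 4) and 8.39 ± 0.13 in LAr (SD, n = 5), with q = 0.077 across states. Its fitted SA animals lay between 8.65 and 8.79, above all SpD animals (8.44 to 8.55), whereas K137, the SA animal outside the fit, had 8.46, within the SpD range. In the fit, SA minus SpD was 0.22 (SE 0.10, q = 0.15). Rpp25l, the paralog of Rpp25, ranged from 8.95 ± 0.086 in EAr to 9.15 ± 0.10 in IBA (SD, n = 5 each), with q = 0.064.

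Pop5 varied most between animals of the same state. Its SD around the fit was 0.597, in the 98.3rd percentile of all rows, while those of the other 7 subunits lay between 0.108 and 0.154. Pop5 had means from 9.96 ± 0.27 in EAr to 10.4 ± 0.67 in Ent (SD, n = 5 each), and its q across states was 0.80. The spread was seen in both experiments. In Ent of experiment 1, K2 had 9.66 while K5 and K8 had 11.05 and 11.02, and in SA, all of experiment 2, K138 had 9.55 while K141 had 11.15.

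**Figure D3:**
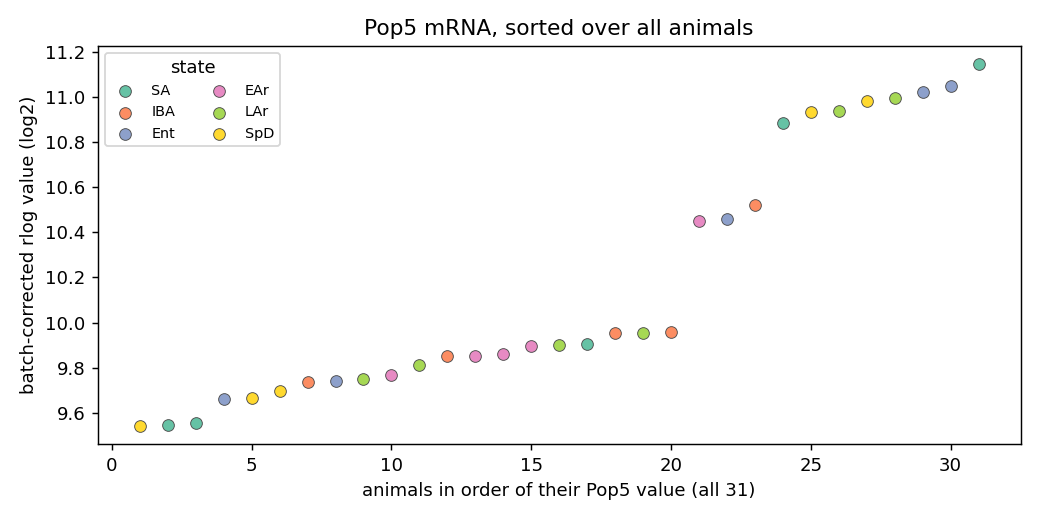
The y axis gives the batch-corrected rlog value (log2) of Pop5 and the x axis the 31 animals in the order of that value, with 1 point per animal coloured by state. The values form a run of 20 animals at 9.54 to 9.96, then 3 animals at 10.45 to 10.52 and 8 animals at 10.89 to 11.15, and each run holds animals of several states.

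Between pairs of states, few subunits passed the test. At q under 0.001 none of the 8 was DE by limma in any of the 8 pairs, and the backgrounds were 0.0544% of all rows for SA minus SpD, 3.15% for IBA minus SA, 0.746% for Ent minus IBA, 0.132% for EAr minus Ent, 0.295% for LAr minus EAr, 1.43% for IBA minus LAr, 1.25% for SpD minus IBA, and 1.58% for EAr minus IBA. At q under 0.05 the calls were those of Pop7 and Pop1 between IBA and LAr (2 of 8, against 18.0% of all rows), Rpp38 between Ent and IBA (1 of 8, against 13.1%), Rpp30 between SpD and IBA (1 of 8, against 11.9%), and Rpp40 between EAr and IBA (1 of 8, against 17.7%). No subunit passed 0.05 in SA minus SpD, IBA minus SA, EAr minus Ent, or LAr minus EAr, where 10.5%, 22.9%, 0.257%, and 0.575% of all rows did. For the hibernation states against SA and SpD, Pop7 was again the 1 call at 0.05, against 33.4% of all rows.

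At an unadjusted p under 0.05 the counts were 5 of 8 in EAr minus IBA (32.4% of all rows), 4 in IBA minus LAr (33.4%), 3 in Ent minus IBA (29.4%), 2 in SpD minus IBA (26.6%), 1 in SA minus SpD (29.1%), 1 in IBA minus SA (36.3%), and 0 in EAr minus Ent (7.16%) and in LAr minus EAr (8.33%), and 3 in the hibernation states against SA and SpD (43.4%). Of these, EAr minus IBA, with Pop1, Pop7, Rpp30, Rpp38, and Rpp40, was the only pair with over 4, and 4 of the 5 were lower in EAr. Over the fitted animals, groups did not overlap for Rpp14 and Rpp30 in SA and SpD (9.37% of all rows), for Pop7 and Rpp38 in IBA and LAr (13.7%), and for Rpp30 in SpD and IBA (6.51%), and they overlapped for all 8 subunits in the other 5 pairs, where 18.8% (IBA and SA), 7.74% (Ent and IBA), 1.20% (EAr and Ent), 6.84% (LAr and EAr), and 13.4% (EAr and IBA) of all rows did not. With K113 and K137 in their groups, the groups overlapped for Rpp14, Pop7, and Rpp38 too, and Rpp30 alone kept its separation in both pairs.

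The median subunit difference was -0.12 in EAr minus IBA and -0.0022 in EAr minus Ent, against -0.0031 and 0.0012 over all rows. In EAr minus Ent, subunit differences ran from -0.40 (Pop5) to 0.037, the smallest q was 0.76, and the 95% intervals together spanned -1.23 to 0.42.

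**Figure D4:**
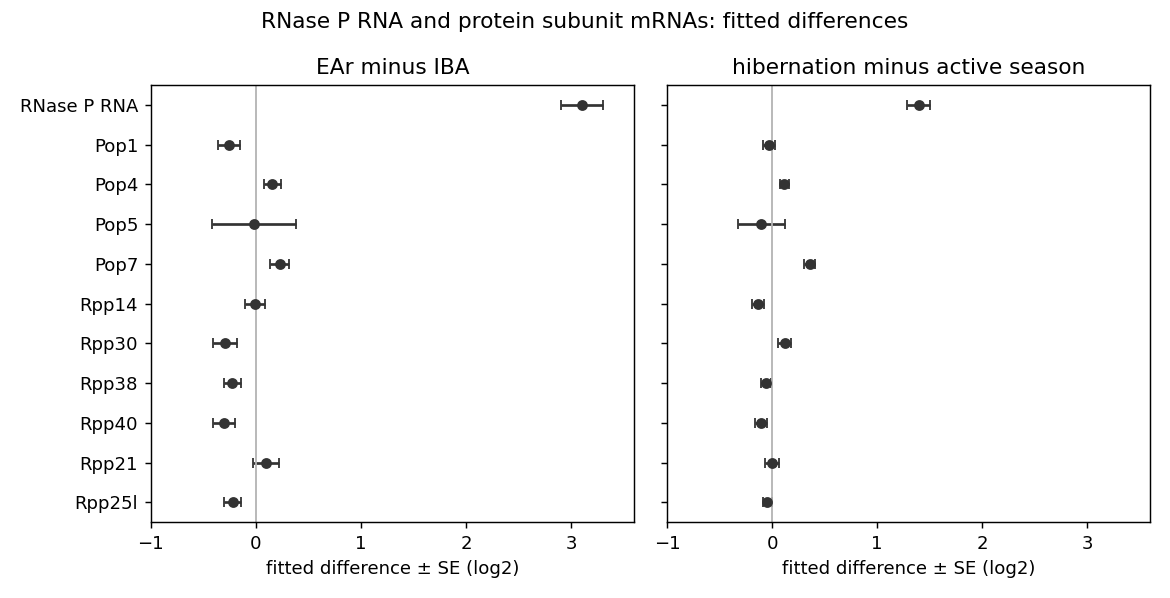
Points give the fitted difference (log2, x axis) and bars its standard error for the RNase P RNA, the 8 subunits, Rpp21, and Rpp25l (y axis), on the left for EAr minus IBA and on the right for the hibernation states minus SA and SpD. The RNase P RNA sits at 3.10 and 1.39, and the subunits lie between -0.31 and 0.23 on the left and between -0.14 and 0.36 on the right.

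Subunits varied only in part together from animal to animal. After the model was taken off, the 28 pairs of subunits had a median Pearson's r of 0.236 over the 29 animals, from -0.344 (Pop1 and Pop7) to 0.735 (Pop4 and Pop7), and 22 pairs were above 0. Between the RNase P RNA and the 8 subunits, r ran from -0.137 to 0.199. These points share their libraries, and the correlations are a description. Sex coefficients of the subunits ran from -0.21 to 0.064 (smallest q = 0.84) and experiment coefficients from -0.075 to 0.11 (smallest q = 0.87), and no subunit had an offset between experiments of the size seen in the RNA.

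Genes that act beside RNase P were DE about as often as all rows. Of 83 listed genes of tRNA maturation, RNA polymerase III, mitochondrial RNase P, the nuclear exosome, and RNase P or MRP outside the named members (the last with 3 of 5 in the table, Rpp21, Rpp25l, and Nepro), 77 were in the table. Of these, 7 were DE across states at q under 0.001 (9.09%, against 9.34% of all rows) and 32 at q under 0.05 (41.6%, against 46.1%). The list of 5 included Rpph1, which is another name for the RNase P RNA and so not a further gene. The 7 became 4 without K139 (SA) and 13 with animals weighted by their spread.

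The exosome core list (12 of 13 in the table) held 2 of the calls at 0.001, against 9.34% of all rows. Exosc4 and Exosc5, which encode ring subunits, were higher in hibernation than in the active season by 0.42 (SE 0.063, q = 2.5e-05) and 0.39 (SE 0.047, q = 1.8e-06), and Exosc2, a cap subunit, by 0.24 (q = 1.8e-04). Their EAr minus IBA differences were 0.16, 0.056, and -0.012. For the catalytic subunit gene Exosc10 that season difference was 0.19 (q = 0.0019), which does not pass 0.001. Among 14 exosome adaptors and enzymes of the oligo(A) tail, all in the table, 0 were DE at 0.001 by limma's F test and 8 at 0.05 or at an unadjusted p under 0.05. Of all rows, 9.34%, 46.1%, and 56.0% passed these thresholds. The lowest p values in that list were those of the nuclear poly(A)-binding protein gene Pabpn1 (q = 0.0037) and Zfc3h1 (q = 0.0066), a component of a connection to the exosome for polyadenylated nuclear RNA. The median of that list in EAr minus IBA was -0.14.

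Among 15 of 16 listed genes of tRNA end maturation, splicing, and binding, 3 were DE, against 9.34% of all rows. Clp1, an RNA kinase found with the tRNA splicing endonuclease and in mRNA 3′ end cleavage, was lower in the 2 arousing states than in IBA. It was at 9.32 ± 0.10 in IBA, 9.13 ± 0.068 in Ent, 8.996 ± 0.081 in EAr, and 8.98 ± 0.092 in LAr (SD, n = 5 each), and EAr minus IBA was -0.40 (SE 0.064, q = 2.2e-04). IBA minus LAr was 0.42 (q = 1.1e-04), and within experiment 2 the IBA mean was 9.415 (n = 2). Xpot, the tRNA exporter, was 0.20 higher in hibernation (q = 3.8e-05), and Trpt1, a tRNA phosphotransferase, had q = 6.2e-04 across states. Ssb, the La protein that binds the 3′ end of new polymerase III transcripts, was 0.24 higher in hibernation (q = 2.4e-04) and did not pass across states (q = 0.0053).

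Of the polymerase itself, 12 of 13 subunits were in the table and 1 was DE (against 9.34% of all rows), Polr1c, which is shared with RNA polymerase I. Its fitted level was 8.47 in IBA and 7.95 in EAr, and it was lower in hibernation by 0.30 (difference -0.30, SE 0.063, q = 8.6e-04). Of 19 transcription factors of RNA polymerase III, 18 were in the table and 1 was DE (against 9.34% of all rows). It was Brf1, a subunit of TFIIIB, which was 0.19 higher in hibernation (q = 3.7e-04). The RNase P RNA gene type of promoter uses Brf2 and the SNAPc complex, and of these genes Snapc4 had the lowest q (0.019). The mitochondrial RNase P has no RNA subunit and 3 proteins. Of their genes, 0 were DE at 0.001 by limma's F test, 1 at 0.05 and 2 at an unadjusted p under 0.05, and the lowest were Hsd17b10 (q = 0.0032) and Trmt10c (q = 0.087). Over all rows the shares were 9.34%, 46.1%, and 56.0%. Nepro had q = 0.051, and Rmrp had no row under that name. No row was named Rpph1, the study's name for the RNase P RNA, which is in the table as RNaseP_nuc.

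Other short structured RNAs named in the table differed in their patterns. The 8 rows found by name were 7SK, 4 copies of U6, the signal recognition particle RNA (Metazoa_SRP), SNORD101, and SCARNA7, and rows without a symbol were not classed. By limma's F test 0 of 8 were DE at q under 0.001 and 3 at 0.05, against 9.34% and 46.1% of all rows. U6_ENSSTOG00000026873 had the lowest q across states (0.0013), and it was at 6.93 ± 0.099 in EAr, 6.74 ± 0.15 in LAr, 6.06 ± 0.65 in Ent, and 6.17 ± 0.66 in IBA (SD, n = 5 each). EAr minus Ent was 1.27 (SE 0.24, q = 0.011), in a contrast that called 0.257% of all rows at 0.05, and EAr minus IBA was 1.16 (SE 0.24, q = 0.0025). Fitted animals of the other states stayed below 7, the level of the authors' filter. The highest value was 6.92 in LAr and 7.03 in EAr. The EAr median was 6.96, so on these values the row met that filter in no state. The authors filtered before the batch correction, and the state that brought this row in is not known here. Nothing is read from its q values. Within experiment 2 the IBA and Ent means were 5.62 and 5.69 (n = 2 each), and within experiment 1 they were 6.55 and 6.31 (n = 3 each).

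The other short RNAs did not share that shape. Metazoa_SRP was lowest in EAr at 7.91 ± 0.32 (SD, n = 5) and highest in SA at 8.87 ± 0.12 (SD, n = 4), with q = 0.0035. U6_ENSSTOG00000018726 was lowest in IBA at 7.07 ± 0.28 and at 7.91 ± 0.25 in EAr (SD, n = 5 each), with q = 0.018 across states and EAr minus Ent of 0.18 (q = 0.86). Copies of U6 are near-identical, and reads may have been shared among them.

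The rows whose values over the 29 animals were most like those of the RNase P RNA, with sex and experiment taken off, carried no gene symbol. They were chosen by their values, and no test is given. Pearson's r was 0.951 for G21802 and 0.920 for G22124, and 3 further rows had r of 0.897 to 0.907. The fitted level of G21802 was 6.39 in SA, 6.66 in IBA, 6.63 in Ent, 7.78 in EAr, 7.76 in LAr, and 6.45 in SpD. Of 19 rows with r above 0.8, 4 had a symbol, namely Usp30, Ces4a, Ppp3ca, and U6_ENSSTOG00000026873 (r = 0.823). Rows without a symbol made up 1240 of the 12863.

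Rows with r below -0.8 numbered 72, and 66 had a symbol. The lowest were Eed (r = -0.940), a subunit of Polycomb repressive complex 2, Ireb2 (r = -0.916), an iron regulatory RNA-binding protein, and Thumpd1 (r = -0.913), an adaptor for tRNA acetylation. Fitted levels of Eed were 9.06 in IBA, 8.58 in EAr, and 8.51 in LAr. Clp1 had r = -0.885. Of the protein subunits, Pop7 had r = 0.665, Rpp40 r = -0.539, and Pop1 r = -0.454.

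**Figure D5:**
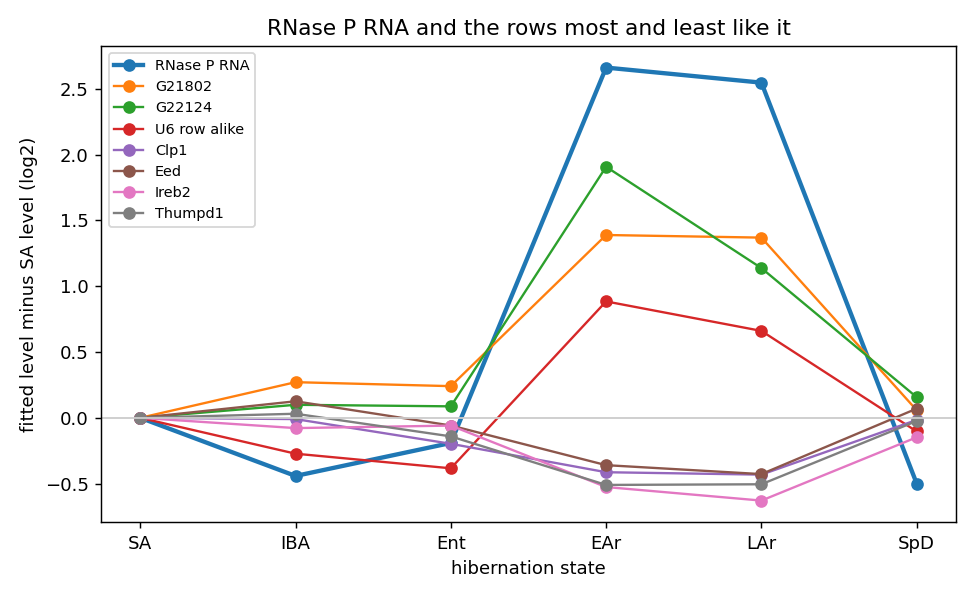
Lines give the fitted level in each state minus that in SA (log2, y axis) by state (x axis) for the RNase P RNA, the 2 rows most like it, U6_ENSSTOG00000026873 (U6 row alike), Clp1, and the 3 rows least like it. Above 0 in EAr and LAr stand the RNase P RNA, G21802, G22124, and the U6 row, where Clp1, Eed, Ireb2, and Thumpd1 lie below it.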

How the data were processed

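Kidney RNA of the 31 animals used here was sequenced from poly(A)-selected, strand-specific libraries. Per the submitters' processing notes and the study's methods, the authors used cutadapt to trim reads, HISAT2 to set mitochondrial reads aside, and Salmon to quantify transcripts of HiC_Itri_2, then summed to genes with tximport, kept genes with rlog of at least 7 in at least 4 animals of a group, made rlog values with DESeq2, and removed a batch effect with limma. Versions are not given in the sources used here. The deposited values are these batch-corrected rlog values on the log2 scale, and counts and depths were not used here.

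Linear models were fitted with limma 3.58.1 (R 4.3.3) on all 12863 rows in 29 animals (without K113 and K137), with terms for state, sex, and experiment and an intensity trend. It replaced the authors' count test, since values and not counts were analysed. P values were adjusted by Benjamini-Hochberg over all rows within the F test and within each contrast, and called at q under 0.001. They set differences between states against the spread between animals, which limma estimates partly from the other rows. The degree of freedom used up by the earlier batch correction was not subtracted. The fit was tested on simulated data. Figures used matplotlib 3.10.9 in Python 3.11.15.

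The members, lists, and tests were chosen with earlier results of these data known. Named genes are the members, Rpp21, Rpp25l, short RNAs by name, of each list those DE across states at 0.001 or else the 2 of lowest p, and the rows most and least like the RNase P RNA; Exosc2, Exosc10, Ssb, Snapc4, and Nepro were chosen after their values were seen. Alternatives were all 31 animals, no experiment or sex term, no trend, a robust prior, animal weights, experiment 2 only, a mean of at least 8, median centring, q under 0.05, only the groups compared, and each animal left out. RefSeq names (mIctTri1.hap1, not the authors' assembly) were used for neighbours only, with no coordinates, and no sequences were used here. Some genes of the lists are not reported here.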

Additional observations from a re-analysis of the deposited data

Results flagged for a closer look

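Pop5 had a high animal in each of 2 states. In IBA, K171 had 10.52 while the other animals lay between 9.73 and 9.96, a gap of 0.716 of the group's range. In EAr, K157 had 10.45 while the others lay between 9.77 and 9.90, a gap of 0.809 of the range. Of 54 groups of animals checked in this way, 2 stood out, and chance alone flags about 1 in 20.

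K113, which took no part in the fits, had an RNase P RNA level of 7.28. It lay within the range of the other LAr animals (7.18 to 8.17) and, as they did, above the SA animals (4.89 to 5.41), a difference for which this RNA was chosen, so nothing is read from it.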

How the results depend on the processing

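The RNase P RNA difference of EAr and IBA (3.10) kept its direction in every alternative. It was 2.16 with no experiment term, where EAr minus Ent was 1.91 and IBA minus LAr was -2.06, 3.41 with only the 2 groups compared, and 3.005 to 3.26 with each animal left out; with no experiment term the offset between experiments stays in IBA and Ent. A filter on a mean of at least 8 drops the RNase P RNA. Subunits called across states (1) and calls of subunits over the 8 pairs and the season contrast together (1, Pop7 by season) were 0 and 0 in experiment 2 alone and 3 and 6 at q under 0.05, the 6 calls being on 5 subunits. The latter were 0 with only 2 groups compared, a fit that has no season contrast. Both stayed at 1 with each animal left out. The season difference of Pop7 (0.36) was 0.33 in experiment 2 alone (q = 0.0019), and its q across states was 0.0020 there; with each animal left out it was 0.32 to 0.40 (highest q = 1.0e-04). Pathway genes called across states (7) were 13 with animal weights, 32 at q under 0.05, and 4 to 8 with each animal left out, the 4 without K139 (SA). No paired analysis was possible because each animal was sampled once and animal numbers are not shared between states. Depth is unknown, and IBA, Ent, and SpD have 2 animals each in experiment 2, which limits every value within it.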

Other observations

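Pop5 values over all 31 animals fell into 3 runs with gaps of 0.491 and 0.365 between them, a pattern seen after the values were examined. The lowest run held 20 animals of all 6 states (10 females, 10 males, 6 from experiment 1), the middle run 3 animals of 3 states (K157, K167, and K171), and the highest 8 animals of 4 states (6 females, 2 males, 3 from experiment 1). After the model was taken off, the rows most like Pop5 over the 31 animals were Mrpl16 (r = 0.754), Wdr4 (r = 0.741), and Bdh2 (r = 0.730). Rnf10, a neighbour of Pop5 in the RefSeq annotation of another assembly, had r = 0.250.

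Hemoglobin rows, found outside the erythroid list, had the following levels. The fitted level of HBA1 was 10.5 in SA, 8.46 in IBA, 8.20 in Ent, 10.01 in EAr, 8.49 in LAr, and 9.17 in SpD, and EAr minus IBA was 1.55 (q = 0.19). HBG1_containing had an EAr minus IBA difference of 1.45 (q = 0.25). In LAr, where the RNase P RNA was as high as in EAr, HBA1 was near its IBA level. Its part in the RNase P RNA values was not tested.

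Of 86 other rows whose names end in an Ensembl identifier, 12 were DE across states at q under 0.001 (13.95%), and of the 48 among them named by the identifier alone, 10 were (20.8%), against 9.34% of all rows.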
